A study of Mus musculus with 16 samples.

Results

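The insulin-like growth factor (IGF) genes of mouse flexor tendon were followed in bulk RNA-seq, as the 10 genes whose symbols are Igf1, Igf2, Igf1r, Igf2r and Igfbp2 to Igfbp7, out of 49568 gene symbols in the count table. The study set C57 mice (C57BL/6J, a common inbred strain) against MRL mice (MRL/MpJ, an inbred strain known for healing with little scar) to ask how their tendon injury responses differ. Tissue was the deep digital flexor tendon of digit 3 of the hind paw, taken uninjured or 7 days after a partial laceration (50% of the tendon width), with 4 libraries in each of 4 groups: C57 uninjured, C57 injured, MRL uninjured and MRL injured. All mice were males of 9 to 11 weeks. Operated mice had ketamine and xylazine as anaesthetics and buprenorphine against pain, which cannot be told apart from the injury. Each library held 1 tendon of a different animal, and the tissue around the tendon was not removed, so that the samples are mixtures of tendon, sheath and repair tissue.

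IGF-I and IGF-II are secreted peptides that act mainly through the receptor tyrosine kinase encoded by Igf1r, whereas the Igf2r product, the cation-independent mannose-6-phosphate receptor, takes up IGF-II for degradation and carries lysosomal enzymes. The IGF binding proteins hold the ligands outside the cell, protect them from turnover and limit their access to the receptor until proteases release them. In tendon, IGF-I is known as a stimulus of matrix synthesis and of tendon cell growth. In bulk tissue, fewer cells that express a gene and less of its RNA per cell cannot be told apart.

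The total count on genes was between 12552424 and 23741648 per library, and the floor of 3 counts equalled 0.126 to 0.241 CPM (counts per 1000000 counted reads). The injured MRL libraries were the deepest, with a median of 23460742.5 counts against 14560249.5 in injured C57. Tenocyte markers (Scx, Mkx, Tnmd, Fmod, Thbs4, Comp, Col1a1 and Kera) were all detected in every group, with a summed level of 13265 to 51588 CPM per library. The libraries labelled uninjured replicate 4 of both strains went against their labels. Among the other 14 libraries, 17 genes had at least 5 CPM in every MRL library and at most 0.5 CPM in every C57 library. The library labelled C57 uninjured replicate 4 had at least 1 CPM of 17 of these 17 genes, and the library labelled MRL uninjured replicate 4 of only 1. Epidermal markers also took up 9.45% of the counts of the library labelled C57 uninjured replicate 4. Both libraries were kept as labelled and are part of the group means unless stated, and the calls among the 10 genes that use them are given with and without them. No fit placed either library in the other strain. In the injured C57 library BI-181, skeletal muscle markers took up 6.28% of the counts. Adipocyte markers summed to 6589 CPM there, against 17.4 to 439 CPM in the other injured C57 libraries.

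Values below are CPM on TMM-adjusted library sizes, always in the order of replicates 1 to 4 for uninjured tendons, BI-181, BI-183, BI-184, BI-185 for injured C57 and BI-270, BI-272, BI-274, BI-275 for injured MRL tendons. Differences are log2 fold changes from edgeR's quasi-likelihood test, each with its standard error (SE) and the p-value adjusted over all genes tested (Benjamini-Hochberg). A gene was called when the adjusted p was below 0.05 and the absolute log2 fold change above 1. Igfbp2 passed the filter on low counts in none of the comparisons of 2 groups, so that 9 of the 10 genes were tested there, and all 10 were tested for an interaction of strain and injury.

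The transcripts of a pair of binding proteins dominated the family once levels were set per kb of exon. Igfbp7, which encodes a low-affinity IGF binder of the extracellular matrix, ranked between 14 and 21 among 47139 gene symbols in the 4 groups, with 1941 ± 748 CPM per kb (SD, n = 4) in uninjured C57 and 2178 ± 187 (SD, n = 4) in uninjured MRL tendons. Igfbp6, which encodes a binder with a preference for IGF-II, ranked between 15 and 49, with 1758 ± 718 and 2135 ± 391 CPM per kb (SD, n = 4) in the same groups. These neighbours in the order lay within each other's spread in both uninjured groups. Igfbp5 followed with 347 ± 112 and 393 ± 38.3 CPM per kb, and Igfbp4 with 202 ± 88.2 and 229 ± 58.5 (SD, n = 4 each). Igf1 was far lower, at 8.87 ± 3.67 and 10.7 ± 0.725 CPM per kb, and Igf1r, Igf2r and Igf2 lay between 1.79 and 3.53 CPM per kb in these 2 groups. In uninjured MRL tendons, the mean ± SD of Igf1r overlapped that of Igf2r, and that of Igf2r overlapped that of Igf2.

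**Figure D1:**
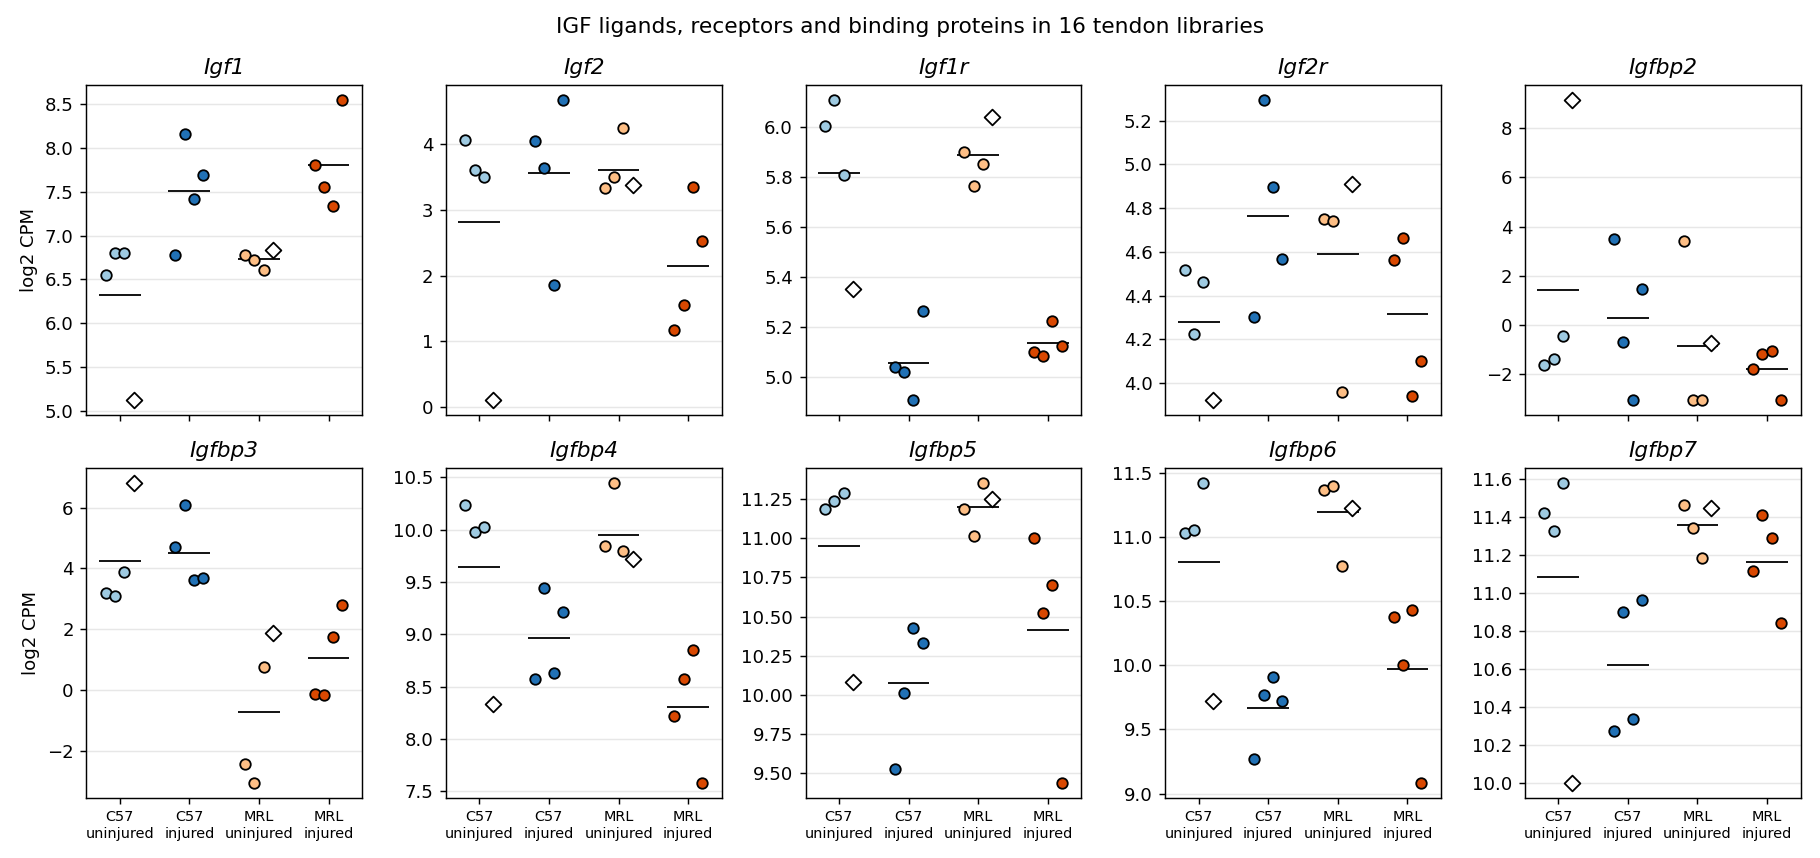
Log2 CPM (prior count 2) of the 10 genes in each of 16 libraries, by group on the x axis, with lines at the mean of 4 libraries. White diamonds are the libraries labelled uninjured replicate 4. Igf1r separates injured from uninjured libraries in both strains, and Igfbp3 separates C57 from MRL within each state among the other 14 libraries, and with all 16 only as labelled.

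After injury, edgeR with all libraries called the ligand gene Igf1 higher and the binding protein genes Igfbp4 and Igfbp6 lower in MRL tendons. It called no gene of the family in C57 tendons, and no interaction of strain and injury. In MRL tendons, 1 of 9 genes was called higher and 2 of 9 lower, against 7.41% of all 14274 genes tested (5.25% higher and 2.15% lower). In C57 tendons 0 of 9 were called by edgeR, 4 of 9 had an unadjusted p below 0.05, and DESeq2 called 1 (Igfbp6). Over the 14424 genes tested by edgeR, 1.07% were called and 15.3% had an unadjusted p below 0.05. Without the library labelled C57 uninjured replicate 4, 3 of 9 genes (Igfbp4, Igfbp5 and Igfbp6) were called lower and none higher, where 5.01% of 14983 genes were called and 1.51% were called lower. In MRL tendons, leaving out the library labelled uninjured replicate 4 left 2 of 9 genes called, Igf1 (higher) and Igfbp4 (lower), against 6.11% of 14868 genes (4.68% higher and 1.43% lower). Over the 9 genes the log2 fold changes had a median of -0.58 for C57 and -0.68 for MRL, where all genes tested had medians of -0.05 and -0.03. With the libraries labelled uninjured replicate 4 left out, the medians of the 9 genes were -0.83 for C57 and -0.65 for MRL.

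Igf1 (chromosome 10, 87858265 to 87937042, plus strand, GRCm38) had 93.7, 112, 111 and 34.7 CPM in the uninjured and 110, 286, 171 and 207 CPM in the injured C57 tendons. In MRL tendons it had 109, 105, 97.0 and 114 CPM uninjured and 224, 187, 162 and 375 CPM injured. The MRL groups did not overlap, as for 22.9% of the genes tested, while BI-181 fell among the uninjured C57 values. Igf1 rose 2.24-fold in MRL tendons (log2 fold change 1.16, SE 0.25, edgeR adjusted p = 0.0158) and by 1.2 on the log2 scale without the library labelled uninjured replicate 4 (adjusted p = 0.0328). Without BI-275, the highest library, the log2 fold change was 0.85 and the call was lost on its size. In 1 fit of all 16 libraries the log2 fold change was 1.16 (SE 0.35) and the call was lost on its adjusted p of 0.0567, whereas DESeq2 called Igf1 (adjusted p = 0.000484). In C57 tendons it had a log2 fold change of 1.09 (SE 0.39, adjusted p = 0.236), and of 0.83 (SE 0.27, adjusted p = 0.116) without the library labelled uninjured replicate 4.

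Macrophages are a known source of IGF-I in injured tissue. The summed level of 10 macrophage markers (Adgre1, Cd68, Csf1r, Cd163, Mrc1, Lyz2, C1qa, C1qb, Fcgr1 and Ptprc) went from 701 to 1487 CPM in uninjured to 4272 to 7872 CPM in injured C57 libraries. In MRL tendons it went from 882 to 1465 CPM to 3434 to 6200 CPM. All 10 markers were detected in every injured library, and the part of this change in the Igf1 result was not tested. Among 15937 genes, those with a log2 CPM pattern most like Igf1 over the 16 libraries were Ctsk, the gene of cathepsin K, and Fkbp1a, with Pearson's r of 0.95 each, and of 0.92 each over the 15 libraries other than that labelled C57 uninjured replicate 4. These are descriptions over libraries that share the injury contrast.

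Igf2 (chromosome 7, 142650766 to 142666816, minus strand), the ligand gene expressed from the paternal copy, had 16.7, 12.1, 11.2 and 0.957 CPM in uninjured and 16.5, 12.3, 3.50 and 25.4 CPM in injured C57 tendons. In MRL tendons it had 9.94, 11.2, 18.9 and 10.3 CPM uninjured and 2.14, 2.81, 10.1 and 5.62 CPM injured. The injured MRL libraries were mostly low, but BI-274 lay within the uninjured range. The log2 fold change after injury was -1.28 in MRL (SE 0.50, adjusted p = 0.129) and 0.47 in C57 tendons (SE 0.78, adjusted p = 0.829). Leaving out the libraries labelled uninjured replicate 4, it was -1.34 in MRL (SE 0.55, adjusted p = 0.170) and 0.09 in C57 tendons (SE 0.54, adjusted p = 0.948). Without BI-274 the MRL value was -1.82 and passed the test (adjusted p = 0.0400). The exons of Igf2 share 3596 bases with those of Gm49394 on the same strand and 98 bases with Igf2os on the other, and how reads on shared bases were assigned is not given in the sources used here.

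Set per length, Igf1 exceeded Igf2 in every library. By the labels, the ratio of Igf1 to Igf2 was 2.97 to 6.41 in uninjured MRL and 9.25 to 60.5 in injured MRL tendons, which did not overlap. In C57 tendons it was 3.25 to 21.0 uninjured and 3.84 to 28.3 injured, and the highest uninjured value belonged to the library labelled replicate 4. Were that library read as MRL by the genes that mark the strains, its 21.0 would lie within the injured MRL range.

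Igf1r (chromosome 7, 67952827 to 68233668, plus strand), the gene of the signalling receptor, was lower in every injured than in every uninjured library of either strain. It had 64.1, 68.9, 55.8 and 40.7 CPM in uninjured and 32.8, 32.4, 30.0 and 38.3 CPM in injured C57 tendons. In MRL tendons it had 59.6, 54.2, 57.6 and 65.6 CPM uninjured and 34.2, 33.9, 37.3 and 34.8 CPM injured. Groups did not overlap for 11.6% of the genes tested in C57 and 22.9% in MRL. The log2 fold change was -0.75 in MRL (SE 0.14, edgeR adjusted p = 0.00962), so that Igf1r fell but not by the size needed for a call, as 11.1% of genes passed the adjusted p at any fold change. It was -0.69 (SE 0.15, adjusted p = 0.0274) without the library labelled MRL uninjured replicate 4. In C57 tendons it was -0.82 (SE 0.20, adjusted p = 0.0925), and -0.95 (SE 0.16, adjusted p = 0.0133) without the library labelled uninjured replicate 4, where 6.26% of genes passed the adjusted p at any fold change. The adjusted p stayed below 0.05 in 8 of 8 MRL fits that left out 1 library and in 1 of 8 C57 fits. With all libraries kept, the C57 value also passed the adjusted p with DESeq2 (-0.77, adjusted p = 0.0193) and in 1 fit of 16 libraries (-0.78, adjusted p = 0.0185).

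Igf2r (chromosome 17, 12682406 to 12769664, minus strand) had a range of 15.1 to 39.1 CPM over the 16 libraries, and its groups overlapped after injury in both strains. The log2 fold change was 0.47 in C57 (SE 0.26, adjusted p = 0.422) and -0.28 in MRL tendons (SE 0.27, adjusted p = 0.531). These became 0.37 (SE 0.25, adjusted p = 0.439) and -0.17 (SE 0.29, adjusted p = 0.769) without the libraries labelled uninjured replicate 4.

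Igfbp4 (chromosome 11, 99041244 to 99054392, plus strand) encodes a binding protein known as an inhibitor of IGF action that the protease PAPP-A cleaves. Its level was 922, 1396, 887 and 841 CPM in uninjured and 299, 381, 463 and 191 CPM in injured MRL tendons, without overlap by the labels. The C57 values were 1202, 1007, 1039 and 322 CPM uninjured and 380, 696, 397 and 594 CPM injured, and the library labelled uninjured replicate 4 had the lowest C57 value of all, below every injured one, while the other uninjured libraries lay above every injured one. With that library left out, 21.8% of the genes tested did not overlap. Were that library read as MRL by the genes that mark the strains, its 322 CPM would lie within the injured MRL range. Igfbp4 fell in MRL tendons by 1.60 on the log2 scale (SE 0.27, edgeR adjusted p = 0.00613) and by 1.66 (SE 0.30, adjusted p = 0.0151) without the library labelled uninjured replicate 4, and the call held in 8 of 8 fits that left out 1 library. In C57 tendons the log2 fold change was -0.83 (SE 0.39, adjusted p = 0.356), and without the library labelled uninjured replicate 4 it was -1.10 (SE 0.23, adjusted p = 0.0242).

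The sequence upstream of the start of Igfbp4 is shown because this gene kept its call in MRL tendons in each of these fits, and that of Igfbp3 because it differed most between the strains of the 9 genes tested. Both are the 250 bases before the start of the RefSeq transcript (GRCm38.p6), 5′ to 3′ on the strand of the gene, outside annotated exons, with matches to the E-box (CANNTG, which reads the same on both strands in this form) and to the TATA box (TATAAA, searched on both strands) in capitals. These are the reference bases of C57BL/6J.
Igfbp4, chr11:99040994-99041243, plus strand: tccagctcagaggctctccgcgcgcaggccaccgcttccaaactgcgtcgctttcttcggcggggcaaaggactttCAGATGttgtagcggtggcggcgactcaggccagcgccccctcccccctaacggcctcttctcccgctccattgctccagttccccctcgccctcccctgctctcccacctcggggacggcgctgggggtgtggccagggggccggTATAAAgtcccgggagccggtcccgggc
Igfbp3, chr11:7213924-7214173, minus strand: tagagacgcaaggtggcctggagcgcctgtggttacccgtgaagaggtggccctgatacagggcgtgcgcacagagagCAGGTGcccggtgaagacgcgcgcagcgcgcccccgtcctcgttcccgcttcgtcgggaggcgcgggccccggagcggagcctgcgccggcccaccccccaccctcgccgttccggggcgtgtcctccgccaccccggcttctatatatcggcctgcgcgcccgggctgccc
Each window held 1 E-box, a motif found in 66.2% of 32851 promoter windows of the same length, and that of Igfbp4 held 1 TATAAA, found in 12.4% of windows. Both were rich in G and C, with 73.2% and 32 CpG sites for Igfbp3 and 69.2% and 22 CpG sites for Igfbp4. All 10 genes were matched to this promoter table.

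Igfbp6 (chromosome 15, 102144362 to 102149511, plus strand) had 2645, 2701, 1753 and 2396 CPM in uninjured and 1334, 1026, 1379 and 543 CPM in injured MRL tendons. The C57 tendons had 2095, 2135, 2746 and 844 CPM uninjured and 616, 873, 962 and 846 CPM injured. By the labels, all injured MRL libraries lay below all uninjured ones, and in C57 the same held apart from the library labelled uninjured replicate 4. Were that library read as MRL, its 844 CPM would lie within the injured MRL range. Igfbp6 fell in MRL tendons by 1.15 on the log2 scale (SE 0.28, edgeR adjusted p = 0.0283), but the call was lost in 5 of 8 fits that left out 1 library, with an adjusted p of up to 0.0798. Without the library labelled MRL uninjured replicate 4 its log2 fold change was -1.13 (SE 0.32, adjusted p = 0.0649), while without both libraries labelled replicate 4 it was called with DESeq2 (adjusted p = 0.00575) and in 1 fit of 14 libraries (adjusted p = 0.0186). In C57 tendons the log2 fold change was -1.29 (SE 0.34, adjusted p = 0.123), and -1.53 (SE 0.19, adjusted p = 0.00415) without the library labelled uninjured replicate 4.

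Igfbp5 (chromosome 1, 72857932 to 72874884, minus strand) encodes a binding protein that attaches to matrix and bone mineral. It had 2328, 2412, 2504 and 1083 CPM in uninjured and 737, 1034, 1374 and 1291 CPM in injured C57 tendons. In MRL tendons it had 2331, 2066, 2617 and 2435 CPM uninjured and 2053, 1469, 1663 and 694 CPM injured. By the labels, the MRL groups did not overlap, although BI-270 came close to the lowest uninjured library. Were the library labelled C57 uninjured replicate 4 read as MRL, its 1083 CPM would lie within the injured MRL range. The log2 fold change was -0.68 in MRL (SE 0.28, adjusted p = 0.144) and -0.95 in C57 tendons (SE 0.31, adjusted p = 0.202). Without the libraries labelled uninjured replicate 4, it was -0.65 in MRL (SE 0.32, adjusted p = 0.239) and -1.16 in C57 tendons (SE 0.21, adjusted p = 0.0163).

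Igfbp7 (chromosome 5, 77349240 to 77408041, minus strand) stayed at 1833 to 2719 CPM in injured MRL tendons against 2329 to 2821 CPM uninjured, and its groups overlapped. The C57 range was from 1241 to 1998 CPM injured and from 1026 to 3058 CPM uninjured. The lowest uninjured value was in the library labelled replicate 4, and the others, at 2569 to 3058 CPM, lay above every injured one. Without that library, 21.8% of the genes tested did not overlap. The log2 fold change was -0.18 in MRL (SE 0.17, adjusted p = 0.538) and -0.58 in C57 tendons (SE 0.34, adjusted p = 0.456). Without the libraries labelled uninjured replicate 4, it was -0.14 in MRL (SE 0.19, adjusted p = 0.700) and -0.83 in C57 tendons (SE 0.21, adjusted p = 0.0533). On these libraries the C57 value passed the adjusted p with DESeq2 (-0.78, adjusted p = 0.00651) and in 1 fit of 14 libraries (-0.78, adjusted p = 0.0377), without the size needed for a call.

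**Figure D2:**
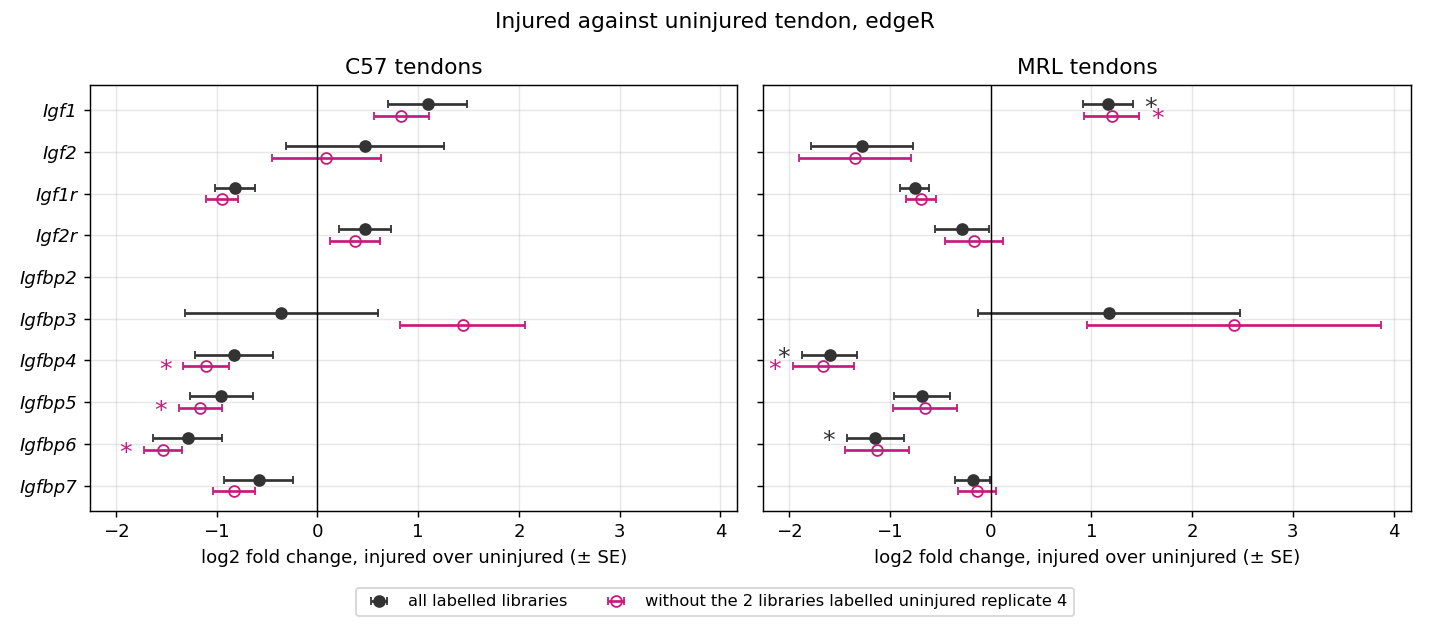
Log2 fold change (± SE) of injured over uninjured tendon in C57 and MRL mice, for the 9 genes tested, with all libraries (filled) and without the libraries labelled uninjured replicate 4 (open). Stars mark calls: Igf1, Igfbp4 and Igfbp6 in MRL with all libraries, Igf1 and Igfbp4 in MRL without replicate 4, and Igfbp4, Igfbp5 and Igfbp6 in C57 without replicate 4.

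Among the binding protein transcripts, Igfbp6 took a smaller and Igfbp7 a larger mean share in injured than in uninjured tendons of both strains. Igfbp6 made up 43.0% ± 3.61 of the summed Igfbp2 to Igfbp7 level per length in uninjured MRL and 29.3% ± 5.86 in injured MRL tendons (SD, n = 4). Igfbp7 made up 44.3% ± 2.44 and 60.9% ± 7.64 in the same groups. In C57 tendons Igfbp6 went from 39.6% ± 3.91 to 31.3% ± 4.84 and Igfbp7 from 43.9% ± 3.76 to 55.5% ± 5.57 (SD, n = 4). The Igfbp7 shares of uninjured and injured libraries did not overlap in either strain. In C57 they came close, at 47.05% in uninjured replicate 1 and 47.37% in BI-184. Those of Igfbp6 overlapped in C57 through the library labelled uninjured replicate 4 alone. That library had 34.4%, the other uninjured C57 libraries 39.2% to 43.7%, and the highest injured one 38.3%. Were that library read as MRL, its share would also lie within the injured MRL range of 22.5% to 34.8%. Igfbp4 made up 3.77% to 6.04% in uninjured and 1.96% to 2.84% in injured MRL libraries, but 3.31% to 5.66% in uninjured and 3.99% to 5.80% in injured C57 libraries. The ratio of summed binding protein to summed ligand transcripts per length was 349 to 601 in uninjured (349 to 429 without the library labelled replicate 4) and 87.6 to 129 in injured C57 tendons. In MRL tendons it was 316 to 416 uninjured and 55.7 to 204 injured. These ratios did not overlap in either strain, are sums of transcripts rather than proteins, and were not tested.

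**Figure D3:**
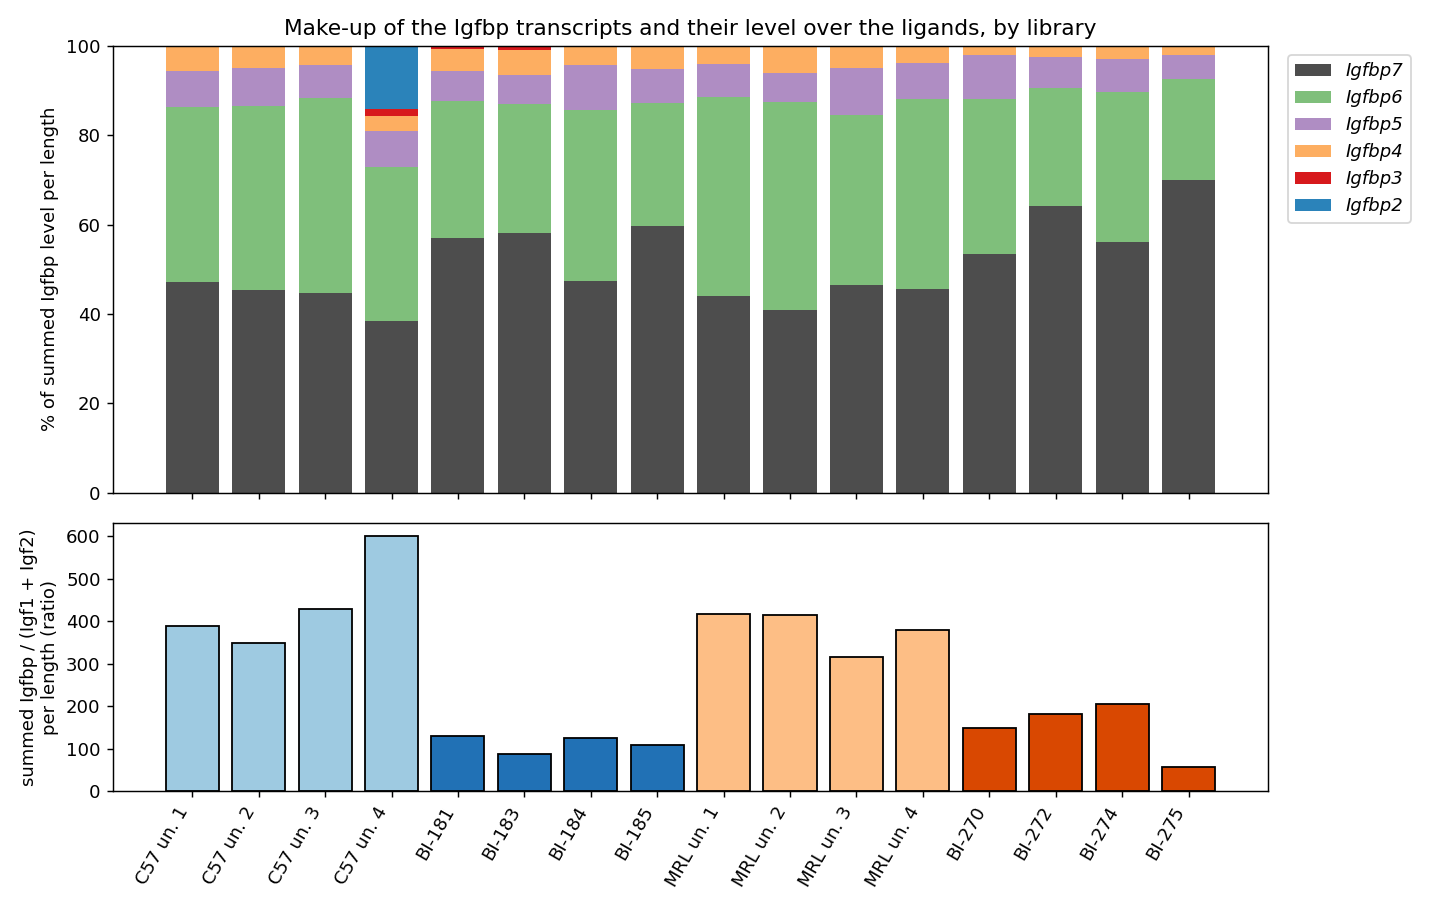
Top, share (%) of each Igfbp transcript in the summed Igfbp2 to Igfbp7 level per length, for each of 16 libraries. Bottom, ratio of that sum to Igf1 plus Igf2 per length, which was 55.7 to 204 in injured and 316 to 601 in uninjured libraries (un. is uninjured, with the replicate number).

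Igfbp2 (chromosome 1, 72824503 to 72852474, plus strand) encodes a binding protein of the circulation and of several epithelia, and was near the floor in most tendons. It had 3, 4, 8 and 8957 counts in uninjured and 185, 8, 0 and 37 counts in injured C57 libraries. In MRL libraries it had 159, 0, 0 and 6 counts uninjured and 4, 7, 8 and 0 counts injured. The value of 8957 counts, or 572 CPM, was in the library labelled C57 uninjured replicate 4, which held the epidermal markers, and their part in it was not tested. The genes most like Igfbp2 in pattern were Gjb2, the gene of connexin 26, and Rnf223, with Pearson's r of 0.90 and 0.89 over 16 libraries and 0.75 and 0.71 over 15 without that library.

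Between the strains, Igfbp3 had the largest difference of the 9 genes that edgeR tested. The 10th gene, Igfbp2, had a larger value in uninjured tendons when kept in without a filter (-5.66, adjusted p = 0.554) or in 1 fit of 16 libraries (-5.73, adjusted p = 0.438), but 3.27 (adjusted p = 0.596) in 1 fit of the 14 libraries without both labelled uninjured replicate 4. Igfbp3 (chromosome 11, 7206086 to 7213923, minus strand) encodes the main carrier of IGF in serum. It had 9.07, 8.36, 14.5 and 112 CPM in libraries labelled C57 uninjured and 26.1, 67.5, 12.1 and 12.6 CPM in injured C57 tendons. It had 0.0663, 0, 1.55 and 3.54 CPM in libraries labelled MRL uninjured and 0.798, 0.771, 3.22 and 6.79 CPM in injured MRL tendons. By the labels, every MRL value lay below every C57 value of the same state, and groups did not overlap for 5.04% of genes in uninjured tendons, or for 24.8% without both libraries labelled replicate 4. The order rests on those labels, since the value of 112 CPM was in the library with the genes that mark MRL, and that of 3.54 CPM in the one that had only 1 of them. Were the strains of these libraries read from those genes, the uninjured groups would overlap, with 112 CPM as the highest MRL value. In uninjured MRL these were 1, 0, 26 and 44 counts, so that the level was at or below the floor in 2 libraries. After injury Igfbp3 had a log2 fold change of -0.36 in C57 (SE 0.96, adjusted p = 0.906) and 1.18 in MRL tendons (SE 1.30, adjusted p = 0.594). Without the libraries labelled uninjured replicate 4, these were 1.44 (SE 0.62, adjusted p = 0.230) and 2.42 (SE 1.46, adjusted p = 0.342).

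In uninjured tendons, 0 of 9 genes were called between the strains by edgeR with all libraries and 0 by DESeq2, and 1 of 9 had an unadjusted p below 0.05, where 0% of 14055 genes were called by edgeR and 7.87% (1106 genes) had an unadjusted p below 0.05. The log2 fold change of Igfbp3, MRL over C57, was -4.89 (SE 1.49, adjusted p = 0.621). Without both libraries labelled uninjured replicate 4, Igfbp3 was called lower in MRL at a log2 fold change of -4.25 (SE 1.07, adjusted p = 0.0488), where 3.48% of 14274 genes were called and 1.41% were called lower. This call did not hold with DESeq2 (adjusted p = 0.0731) or in 1 fit of all 14 libraries (adjusted p = 0.116) without the same libraries. The other 8 genes then had log2 fold changes between -0.15 and 0.11, and none was called. For Igf1 the uninjured means were 106 ± 10.2 CPM in C57 and 104 ± 6.24 CPM in MRL tendons (SD, n = 3).

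In injured tendons, which neither library of doubtful strain label touches, 0 of 9 genes were called by edgeR and 2 of 9 had an unadjusted p below 0.05 (Igf2 and Igfbp3), against 3.43% of 14626 genes called and 21.2% with an unadjusted p below 0.05. DESeq2 called 2 (Igfbp2 and Igfbp3), with a log2 fold change of -4.16 (SE 1.41, adjusted p = 0.0333) for Igfbp2, which edgeR's filter removed. Kept in without a filter, Igfbp2 was not called by edgeR (-4.06, adjusted p = 0.215), nor in 1 fit of 16 libraries (-4.03, adjusted p = 0.457). Its injured C57 counts were 185, 8, 0 and 37, the highest in BI-181, the library with skeletal muscle markers. Igfbp3 had a log2 fold change, MRL over C57, of -3.40 (SE 0.83, edgeR adjusted p = 0.0522) and did not overlap between the strains, as for 15.8% of the genes tested. DESeq2 gave -3.38 (adjusted p = 0.00022). Of the 9 genes that edgeR tested, Igf2 was next, at -1.52 (SE 0.65, adjusted p = 0.212), followed by Igfbp4 at -0.66 (SE 0.30, adjusted p = 0.244). Igf1, Igf1r, Igf2r, Igfbp5, Igfbp6 and Igfbp7 had log2 fold changes between -0.50 and 0.49, with adjusted p-values of 0.260 or more.

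Vascular cells are a known site of Igfbp3 expression. The summed level of 8 endothelial markers (Pecam1, Cdh5, Kdr, Emcn, Tie1, Vwf, Egfl7 and Esam) was 124 to 231 CPM in injured C57 and 5.46 to 36.5 CPM in injured MRL libraries. In uninjured tendons it was 17.3 to 111 CPM in C57 and 19.2 to 91.0 CPM in MRL, and these ranges overlapped. All 8 markers were detected in every injured C57 library and 4 of 8 in every injured MRL library, and none was at 0 in a whole group. The summed level of 7 pericyte and smooth muscle markers (Acta2, Myh11, Rgs5, Cspg4, Pdgfrb, Mcam and Notch3) was 532 to 1483 CPM in injured C57 and 290 to 411 CPM in injured MRL libraries, also without overlap. In uninjured libraries it was 219 to 944 CPM in C57 and 404 to 548 CPM in MRL, with overlap. All 7 were detected in every injured C57 library and 5 of 7 in every injured MRL library, and none was at 0 in a whole group. The part of either set of markers in the Igfbp3 difference was not tested. The genes most like Igfbp3 in pattern over 16 libraries were Atp6v1b2 and Gm26857, with Pearson's r of 0.90 each, and of 0.88 and 0.87 without the library labelled C57 uninjured replicate 4.

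**Figure D4:**
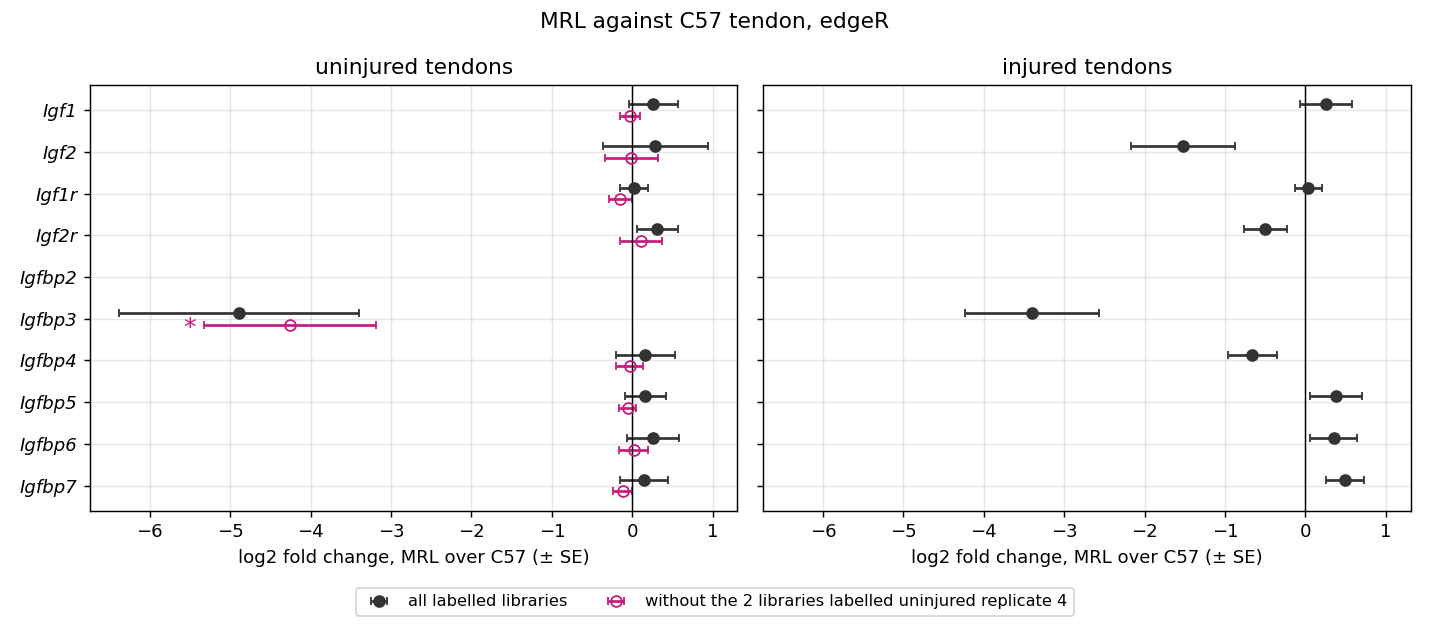
Log2 fold change (± SE) of MRL over C57 tendon, uninjured (left) and injured (right), for the 9 genes tested, with all libraries (filled) and, for uninjured tendons, without the libraries labelled replicate 4 (open). Igfbp3 lies between -4.89 and -3.40 and is called by edgeR (star) in uninjured tendons without those libraries only.

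Whether the strains responded differently to injury was tested as an interaction term in a fit of all 16 libraries. None of the 10 genes was called by edgeR (adjusted p below 0.05) or by DESeq2, and 1 of 10 had an unadjusted p below 0.05, where 0% of 15947 genes were called and 12.2% had an unadjusted p below 0.05. The smallest adjusted p was 0.408, for Igf2r, with a difference of -0.80 in log2 fold change, MRL minus C57 (SE 0.38). For Igf2 the difference was -1.79 (SE 0.98, adjusted p = 0.485), and for Igfbp4 it was -0.82 (SE 0.50, adjusted p = 0.537). For Igf1 and Igf1r it was 0.01 (SE 0.48) and 0.02 (SE 0.23). A different response of any of these genes in MRL and C57 tendons was therefore not shown, and the calls made in 1 strain only are not a test of such a difference. Without both libraries labelled uninjured replicate 4, edgeR and DESeq2 again called none of the 10 genes.

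Several genes of the binding protein set varied together over the 16 libraries. Igfbp5 and Igfbp6 had a Pearson's r of 0.93 between their log2 CPM both with all libraries and when that labelled C57 uninjured replicate 4 was left out, and Igf1r and Igfbp6 had 0.84 and 0.85. These values include the injury contrast that the genes share. The genes most like Igfbp6 were Hand2, which encodes a basic helix-loop-helix transcription factor, and Aff3 (r of 0.95 each over 16 libraries), and those most like Igfbp5 were Tm7sf3 and Prelp, which encodes a leucine-rich proteoglycan of connective tissue (r of 0.96 each). For Igfbp4 they were Il16 and Tmem255b (r of 0.94 each). Igfbp7 was most like Sod3, the gene of extracellular superoxide dismutase (r of 0.95), and Ngef (0.94). Among the ligand and receptor genes, Igf2 was most like Osr2 and Atp1b2 (r of 0.90 and 0.89). Igf1r was most like Auts2 and Dalrd3 (r of 0.95 and 0.94), and Igf2r like Gm37474 and Papolb (r of 0.76 and 0.74).

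Downstream of the receptor, 2 of 25 tested genes of IGF receptor signalling were called lower in MRL tendons after injury, against 2.15% of all genes, and none was called higher. Counts of this and the following lists are descriptions, and 7.41% of all genes were called in MRL tendons (5.25% higher). Irs2, which encodes a docking protein of the insulin and IGF receptors, fell by 2.53 on the log2 scale (SE 0.37, edgeR adjusted p = 0.00338), from 131 ± 19.8 to 22.6 ± 12.5 CPM (SD, n = 4). Pik3r1, the gene of a regulatory subunit of PI 3-kinase, fell by 1.07 (SE 0.16, adjusted p = 0.00371). Eif4ebp1, on the same list, rose by 0.91 (SE 0.17, adjusted p = 0.00859), below the size needed for a call. Without the library labelled MRL uninjured replicate 4 its rise was 0.90 (SE 0.19, adjusted p = 0.0236). The 25 genes had median log2 fold changes of -0.28 (MRL) and -0.26 (C57). In C57 tendons none of the 25 was called, and 6 had an unadjusted p below 0.05, as 15.3% of all genes did. Without the library labelled C57 uninjured replicate 4, Irs2 (-1.57, SE 0.25, adjusted p = 0.0103) and Mtor, the gene of a growth-controlling kinase (-1.19, SE 0.27, adjusted p = 0.0333), were called lower. In that fit 1.51% of all genes were called lower. Mtor was also lower in uninjured MRL than C57 tendons without both libraries labelled replicate 4 (-1.55, SE 0.23, adjusted p = 0.00345), where 1.41% of genes were called lower.

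Among 10 tested genes of IGFBP cleavage and IGF release, 1 was called in MRL tendons, against 7.41% of all genes. Adam12, which encodes a metalloprotease able to cleave binding proteins, rose from 0.493 ± 0.521 to 26.7 ± 18.4 CPM (SD, n = 4; edgeR adjusted p = 0.00407). In C57 tendons its means were 0.493 and 15.9 CPM, and it was not called. Htra1 and Htra3, genes of secreted serine proteases, were called lower in C57 tendons without the library labelled uninjured replicate 4, with log2 fold changes of -1.24 (SE 0.25, adjusted p = 0.0226) and -1.23 (SE 0.20, adjusted p = 0.0103). In that fit 1.51% of all genes were called lower. With all libraries none of the 10 was called in C57 tendons, and 4 had an unadjusted p below 0.05, against 15.3% of all genes. The median of the list was 0.13 in MRL and -0.01 in C57 tendons.

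Of the other members of the binding protein superfamily, 4 were tested in MRL tendons and 1 was called after injury, against 7.41% of all genes. Nov (Ccn3), which encodes a matricellular CCN protein, fell by 1.28 on the log2 scale (SE 0.33, adjusted p = 0.0327). Without the library labelled MRL uninjured replicate 4 it was -1.31 (SE 0.37, adjusted p = 0.0646), of like size but not called. Ctgf (Ccn2), the gene of connective tissue growth factor, was then called higher (1.13, SE 0.28, adjusted p = 0.0431). None of 5 tested in C57 tendons was called after injury, with or without the library labelled replicate 4, and 1 had an unadjusted p below 0.05 with all libraries. Kazald1, which encodes a secreted protein with an IGF-binding domain, was higher in injured MRL than in injured C57 tendons (1.06, SE 0.23, adjusted p = 0.0323), at 108 ± 25.2 and 50.7 ± 13.1 CPM (SD, n = 4). Between the injured strains, 3.43% of all genes were called. Igfbp1 had no counts in any library.

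Of the imprinted genes listed with Igf2, 2 of 7 tested were called lower in MRL tendons after injury, against 2.15% of all genes. Cdkn1c, which encodes a cell cycle inhibitor, fell by 1.58 (SE 0.36, edgeR adjusted p = 0.0211), and Peg3, which encodes a zinc finger protein, fell by 1.66 (SE 0.40, adjusted p = 0.0269). Without the library labelled MRL uninjured replicate 4, Cdkn1c was called (-1.67, SE 0.38, adjusted p = 0.0319) and Peg3 was not (-1.30, SE 0.39, adjusted p = 0.0738). Cdkn1c was also lower in injured MRL than in injured C57 tendons, at 4.79 ± 1.69 and 16 ± 5.56 CPM (SD, n = 4; log2 fold change -1.78, adjusted p = 0.0444). Between the injured strains, 3.43% of all genes were called. In C57 tendons none of 9 tested was called after injury with all libraries, and none had an unadjusted p below 0.05. H19, the noncoding RNA gene beside Igf2, was called higher in C57 tendons without the library labelled uninjured replicate 4 (adjusted p = 0.0464). In that fit 5.01% of all genes were called. The 3 uninjured libraries left had no H19 counts and the injured ones had 0.639 to 13.3 CPM, so no fold is given.

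Igf2bp2, 1 of 2 tested genes of proteins that bind Igf2 mRNA, rose in MRL tendons from 1.29 ± 0.914 to 9.52 ± 5.0 CPM (SD, n = 4; edgeR adjusted p = 0.0194). In C57 tendons it had 1.64 ± 2.01 and 12.1 ± 2.02 CPM and was not called. Of 6 tested genes of the growth hormone axis, which drives Igf1 in liver and other tissues, Ghr, the growth hormone receptor gene, fell in MRL tendons by 1.06 on the log2 scale (SE 0.27, adjusted p = 0.0336), from 170 ± 10.1 to 81.3 ± 33.4 CPM (SD, n = 4). The value was of the same size but not called without the library labelled MRL uninjured replicate 4 (-1.06, SE 0.32, adjusted p = 0.0743). None of the 7 tested in C57 tendons was called, and none had an unadjusted p below 0.05. In the interaction test none of the genes of these lists was called.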

How the data were processed

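RNA-seq of 16 libraries (4 per group) was analysed, with groups and replicate numbers from the labels. Reads (single-end, 100 nt) were trimmed by the authors (Trimmomatic 0.36) and aligned (STAR 2.5.2b) to GRCm38.p5, the C57BL/6J reference. The authors deposited whole-number counts per gene symbol without normalization. The submitters' processing notes also name Subread 1.5.0p3 and DESeq2 1.14.1. The annotation and strand setting are not given in the sources used here, so counts of overlapping and antisense genes are uncertain. According to the methods 1 ng of RNA was pre-amplified, while the labels give a TruSeq kit and 100 ng.

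From the counts, each comparison of 2 groups was fitted on its own libraries with edgeR 4.0.16 in R 4.3.3 (expression filter, TMM factors, robust quasi-likelihood test), as tested on simulated data, and the interaction on all 16. Exon lengths came from GENCODE M21. Genes named were the 10 of the family, the genes of fixed pathway lists called in a comparison, and the 2 genes most correlated with each member. Igfbp1 and Eif4ebp1 were named beside them after their values were seen. The members and lists were chosen with earlier results of these data known. The uninjured libraries of the strains share numbers but not animals, and no pair of libraries had identical counts. Alternatives were DESeq2 1.42.0, other scaling, no filter, 1 joint fit, a replicate block and leaving out libraries. Those without both libraries labelled uninjured replicate 4 in DESeq2 or in a joint fit of 14 were chosen after seeing the data.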

Additional observations from a re-analysis of the deposited data

Results flagged for a closer look

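In 6 of 40 groups of 4 libraries tested, 1 library lay far from the other 3 in log2 CPM, and it was each time the library labelled C57 uninjured replicate 4. Chance flags about 1 in 20 groups, and the 6 flags share 1 library. The gap to the nearest library, as a share of the range of the group, was 0.850 for Igf1, 0.856 for Igf2, 0.866 for Igfbp4, 0.913 for Igfbp5 and 0.840 for Igfbp7, in which the library was low. It was 0.889 for Igfbp2, in which the library was high, at 572 CPM against at most 0.617 CPM in the other 3. The critical value is 0.829. In the same library epidermal markers took up 9.45% of the counts, and the genes that mark the strains went against its label. The part of either in these values was not tested.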

How the results depend on the processing

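Over 46 log2 fold changes and their alternatives, 712 values were recomputed. Of these 642 kept direction and side of the threshold, 7 lost the call, 14 gained it and 49 changed sign. With DESeq2 1 member was called in C57 tendons after injury and 2 between injured strains. Without both libraries labelled uninjured replicate 4, 3 members were called in C57 tendons with DESeq2 and 3 in 1 fit of 14 libraries, and 1 between uninjured strains with edgeR. Leaving out 1 library, the members called were 0 to 3 in C57 tendons (3 without the library labelled uninjured replicate 4), 1 to 4 in MRL tendons (1 without BI-275 and 4 without BI-274, Igf2 being added), 0 in every fit between uninjured strains, 0 to 1 between injured strains (1 without BI-275) and 0 in every fit of the interaction. The causes were not tested, and 4 libraries per group limit precision.

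Sign changes were in values that were not called. Without both libraries labelled uninjured replicate 4, the uninjured strain difference was -0.033 for Igf1, -0.010 for Igf2, -0.15 for Igf1r, -0.031 for Igfbp4, -0.057 for Igfbp5 and -0.12 for Igfbp7. With DESeq2 on these libraries it was -0.027, -0.0032, -0.14, -0.025, -0.052 and -0.12 in the same order, and in 1 fit of 14 libraries -0.022 for Igf1, -0.14 for Igf1r, -0.020 for Igfbp4, -0.047 for Igfbp5 and -0.11 for Igfbp7. Igfbp3 in C57 tendons after injury, at -0.36 with all libraries, became 1.49 with DESeq2 and 1.48 in 1 fit of 14 libraries. The Igfbp2 interaction, which includes 8957 counts in the library labelled C57 uninjured replicate 4 and otherwise single libraries of 159 and 185 counts, became -7.33, and -7.43 with DESeq2. Leaving out 1 library, the C57 injury value of Igfbp3 ranged from -1.13 to 1.44. The uninjured strain difference ranged from -0.092 to 0.63 for Igf2, -0.094 to 0.13 for Igf1r, -0.11 to 0.35 for Igfbp4, -0.039 to 0.27 for Igfbp5 and -0.090 to 0.30 for Igfbp7, and the injured one from -0.022 to 0.11 for Igf1r. The interaction ranged from -0.30 to 0.27 for Igf1, -0.075 to 0.15 for Igf1r, -6.98 to 5.89 for Igfbp2, -0.31 to 2.66 for Igfbp3 and -0.11 to 0.34 for Igfbp6.

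Over all genes, edgeR called 155 in C57 tendons after injury, DESeq2 903, 1 fit of 16 libraries 367 and fits without 1 library 10 to 750. In MRL tendons they were 1057, DESeq2 1819 and 689 to 1260 without 1 library. Between uninjured strains they were 0, DESeq2 102 and 497 without both libraries, between injured strains 502, DESeq2 1490 and 227 in 1 fit of 16 libraries, and for the interaction 0 and DESeq2 214. With the replicate number as a block, 0 members and 0 genes were called between uninjured strains. Same-numbered libraries did not deviate together (correlations of -0.262, 0.016, -0.105 and -0.234), so the numbers do not pair them. With the longest transcript as length, the level of Igf1 per kb became 12.5, 27.4, 15.1 and 33.6 CPM and that of Igf1r 5.03, 2.92, 5.20 and 3.07 CPM in uninjured and injured C57 and uninjured and injured MRL tendons.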
